A study of Populus ussuriensis with 9 samples.

Results

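The genes described here had their lowest transcript level in OE14, the middle of 3 poplar genotypes ordered by overexpression of LbDREB6, and a higher level in both wild type (WT) and OE18. They were chosen by their RNA-seq values. A gene belonged to the set when log2(group mean FPKM + 1) was lower in OE14 than in WT by 1 or more and higher in OE18 than in OE14 by 1 or more, which is 2-fold on that scale. FPKM is the number of fragments per kilobase of gene and scaled to the reads assigned in the library. Genes needed to reach 1 FPKM in 3 or more of the 9 libraries, which 22848 of 29764 did, and a stretch of loci at the start of chromosome 5 was left out. The rule found 104 genes, 0.455% of those tested.

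The plants were 6-month-old Populus ussuriensis grown in a greenhouse, and fully expanded leaves were sampled. WT plants were labelled as wild type, OE14 plants overexpressed LbDREB6 at a moderate level and OE18 plants at a high level. Each genotype had 3 libraries, called biological replicates in the design text, with no statement of which plants they came from. All 9 libraries came from plants without watering, for 2 weeks in the sample descriptions and for 1 week in the treatment protocol. Each expression level was 1 transgenic line, so level and line cannot be told apart, and the promoter that drives the transgene is not given in the sources used here. The WT columns were headed C and were assigned to WT by elimination.

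DREB proteins, for dehydration-responsive element binding, are plant transcription factors of the AP2/ERF family. They bind a short element in the promoters of many drought- and cold-inducible genes and mostly act as activators there. Raising the level of such a factor is known to change its direct targets and also genes further downstream, in either direction. The deposited table gives locus IDs and does not pair them with gene names, so no function is stated for any member, 4 members are printed by ID, and the others are described by the chromosome in their ID and by their level. For the same reason the leaf identity of the samples was not checked against marker genes, and LbDREB6 itself was not analysed here.

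Library depth ran from 10988010 to 16221919 assigned reads, recovered from the FPKM values. With 3 reads over the 3 OE14 libraries taken as the limit that a count of 0 allows, the members without an OE14 read could have had up to 0.0518 to 0.142 FPKM, depending on gene length. These limits cover counting error only. In bulk leaf tissue, fewer cells of a type and less RNA per cell cannot be told apart.

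Genes that were low in OE14 took different courses towards OE18. Outside the excluded part of chromosome 5, 397 tested genes lay 2-fold or more below WT in OE14. Of these, the 104 members (26.2%) lay 2-fold or more higher in OE18 than in OE14. Another 112 were higher in OE18 by less than 2-fold, 138 were lower by less than 2-fold and 43 were lower by 2-fold or more. Among all tested genes outside that part of chromosome 5, 3556 lay 2-fold or more higher in OE18 than in OE14. Both steps use the OE14 mean, so a low OE14 value favours a rise towards OE18. The mirror rule, 2-fold or more higher in OE14 than in both other genotypes, was met by 210 genes.

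**Figure D1:**
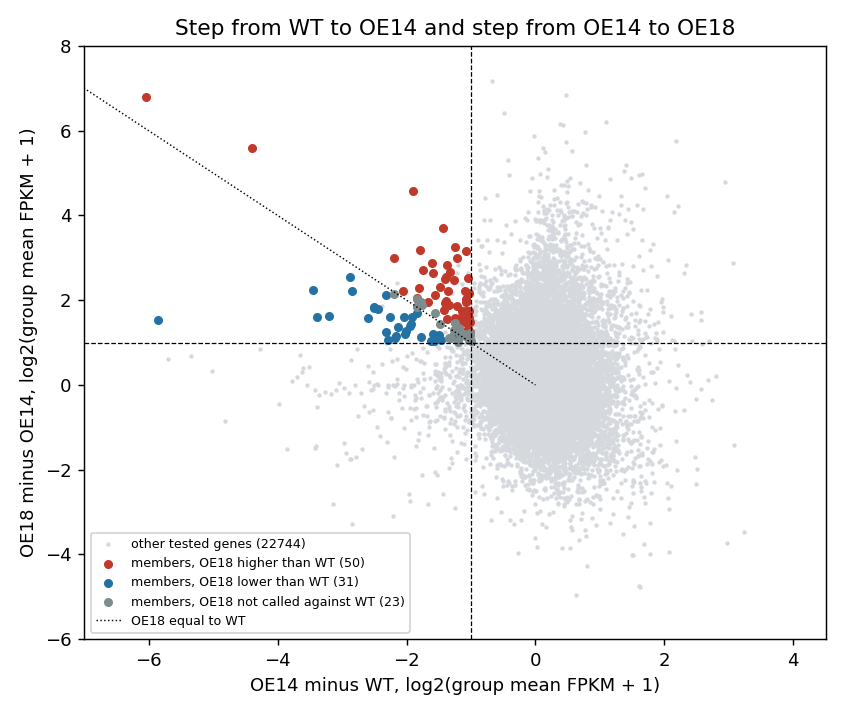
Each point is a tested gene, with OE14 minus WT on the x axis and OE18 minus OE14 on the y axis, both as log2(group mean FPKM + 1). Coloured points are the 104 members, which lie left of and above the dashed thresholds of the rule by construction, and the dotted line marks equal levels in OE18 and WT; against WT, OE18 was called higher in 50 members, lower in 31 and neither in 23.

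The sizes of the steps that chose the members are given as a description. The step from WT to OE14 had a median of -1.45 and reached -6.04, and 25 members had a fall of 4-fold or more on the log2(FPKM + 1) scale. The step from OE14 to OE18 had a median of 1.70 and reached 6.80, and 33 members had a rise of 4-fold or more. Both steps were 4-fold or more in 9 members. In mean FPKM without a pseudocount, OE14 held a median of 26.9% of the WT level, with a range from 0% to 48.3%.

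The thresholds cut through a continuous range. The 2 members with the smallest falls had steps of 1.00 and 1.01, with 1.77 and 35.5 FPKM in WT against 0.385 and 17.2 FPKM in OE14. The 2 genes that just missed had steps of 0.998 and 0.997, with 96.7 and 1.58 FPKM in WT against 47.9 and 0.292 FPKM in OE14. On the way to OE18, the members with the smallest rises had steps of 1.02 and 1.03 and the nearest genes outside had 0.98 and 0.91.

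Summed over members, the OE14 libraries were close to each other, and their low level follows from the rule. The FPKM of the members summed to 6165 to 6220 in the WT libraries, to 1682 to 1698 in OE14 and to 6322 to 6362 in OE18. As a share of all FPKM of a library this came to 1.18% in each WT library, to between 0.317% and 0.324% in OE14, and to between 1.12% and 1.15% in OE18. The median member stood at 15.1 to 15.8 FPKM in the WT libraries, 3.63 to 4.14 FPKM in OE14 and 18.8 to 19.3 FPKM in OE18. Fewer than 1 FPKM was found for 18 to 22 members in each OE14 library, for at most 1 member in each WT library and for none in OE18.

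Single libraries left out of the group means of the rule gave the same order for most genes. The rule was applied again with 1 library left out of its group mean, and that library was then read in the genes chosen. The FPKM filter still used all 9 libraries, and the other libraries of the group still chose the genes. The unused library was read against the means of other genotypes that had also chosen the genes, such as the low OE14 mean. High shares are thus favoured by the choice, unlike those of all tested genes. The shares are therefore a description. For OE14 replicate 1, 112 genes were chosen without it, and in 84 of them (75.0%) the unused library alone lay 2-fold or more below the means of both WT and OE18. For OE14 replicates 2 and 3 this held in 79.6% and 79.2% of the genes chosen. The same condition was met by 0.497% to 0.581% of all tested genes outside the excluded stretch. An unused WT library lay 2-fold or more above the OE14 mean in 82.7% to 86.7% of the genes chosen without it, and an unused OE18 library in 90.4% to 97.0%. Among all tested genes outside the stretch the corresponding shares were 1.81% to 1.89% for WT and 15.3% to 16.1% for OE18.

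**Figure D2:**
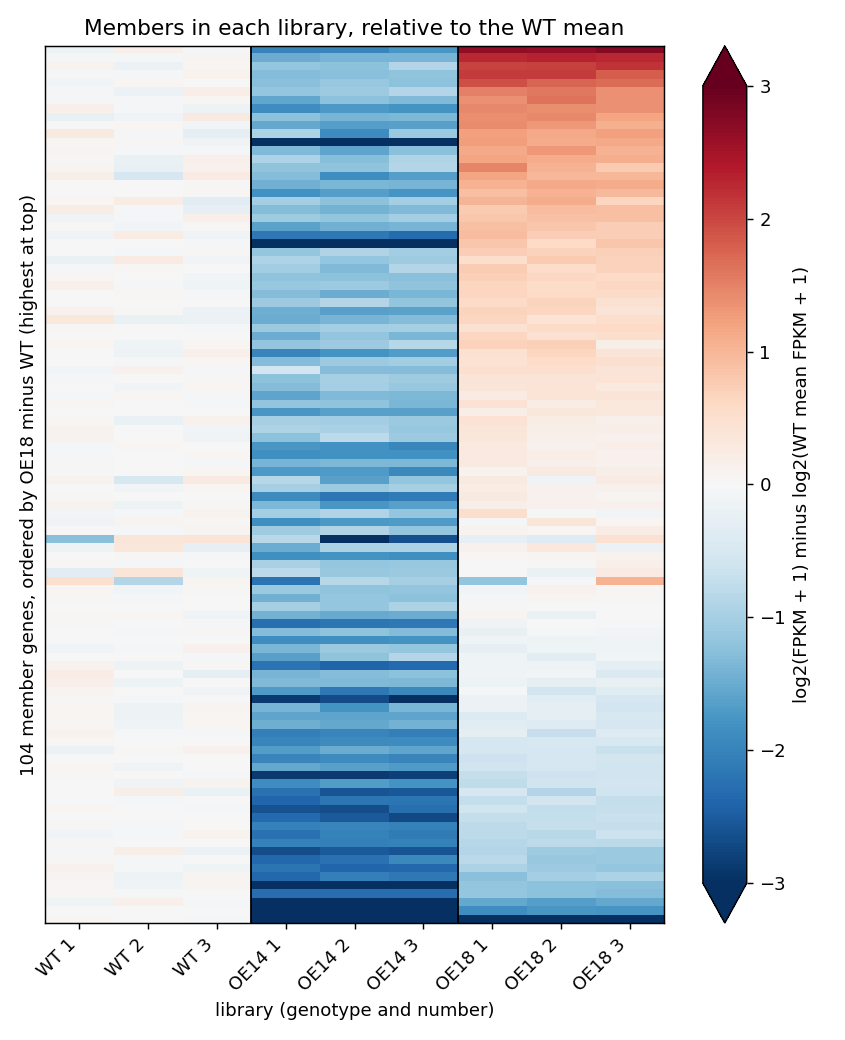
Colour shows log2(FPKM + 1) of each member in each library minus log2 of its WT mean FPKM + 1, with values past 3 in either direction drawn at the end of the scale. Rows are the 104 members from the highest to the lowest OE18 minus WT, and columns are the 9 libraries; the OE14 columns are blue in nearly every row, and the OE18 columns run from red at the top to blue at the bottom.

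All 3 OE14 libraries lay below all WT libraries in 102 of the 104 members, which also held for 24.3% of all tested genes, and below all OE18 libraries in 103 members, against 39.5% of tested genes. Limma called all 104 members lower in OE14 than in WT, as it did 20.9% of tested genes, and all 104 higher in OE18 than in OE14, as it did 38.8%. These counts follow from the rule and carry no support of their own. The exceptions were picked out once their values were known. A member among the unplaced loci had 54.3, 169 and 171 FPKM in the WT libraries, 73.8, 14.2 and 20.3 FPKM in OE14 and 111, 101 and 181 FPKM in OE18. Its highest OE14 library lay above its lowest WT library, so its place in the set rests on group means that individual libraries do not all follow. A member of chromosome 3 had 17.1, 6.00 and 12.8 FPKM in WT, 1.79, 6.12 and 5.51 FPKM in OE14 and 4.68, 11.6 and 25.7 FPKM in OE18, and its OE14 libraries overlapped those of both other genotypes.

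Spread among libraries of the same genotype was not named in the rule, but it depends on the level, which the rule set low in OE14. Members had a median coefficient of variation of 6.60% among WT libraries, 10.6% among OE14 libraries and 6.46% among OE18 libraries, beside 7.69%, 7.62% and 7.85% for all tested genes. Members have fewer reads in OE14 than elsewhere, and 12 of them had fewer than 20 reads over the 3 OE14 libraries. Bands of WT level do not match the OE14 level, which the rule made lower in members. Within each band, the OE14 spread of members was above that of tested genes. It was 48.7% against 12.5% at 1 to 5 FPKM in WT (19 members), 12.05% against 6.53% at 5 to 20 FPKM (41 members), 8.20% against 4.37% at 20 to 100 FPKM (24 members) and 4.78% against 3.54% at 100 to 500 FPKM (20 members). In WT and OE18 the medians of members lay between 2.64% and 13.1% over these bands, beside 2.82% to 13.8% for tested genes. The part of depth in the OE14 values was not tested.

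The comparison that the rule did not name was OE18 against WT, although it is the sum of the steps that chose the members. A member could lie below WT in OE18 only by as far as its fall in OE14 exceeded 1, while above WT there was no bound, so the rule favours members above WT and the counts below are a description. The comparison asks whether the line with the highest overexpression came back to the WT level, passed it or stayed below it. By limma on log2(FPKM + 1), with Benjamini-Hochberg adjustment over all 22848 tested genes, OE18 was called above WT in 50 members (48.1%) and below WT in 31 (29.8%), and 23 were not called. Of all tested genes, 41.6% were called higher and 37.9% lower. The share of members called in either direction was thus close to the 79.5% of all tested genes. The median log2 difference of OE18 minus WT was 0.17 over the members and 0.03 over all tested genes. Quantile normalization moved these medians to 0.04 and -0.15. Under that scaling limma called 43 members higher and 36 lower, and of all 22848 tested genes 8028 higher and 10647 lower, so members and tested genes shifted together.

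The distance between OE18 and WT was near that of tested genes in general. On log2(group mean FPKM + 1), 78 members lay within 2-fold, 17 lay 2-fold or more above WT and 9 lay 2-fold or more below. Of all tested genes, 18.8% lay 2-fold or more above and 9.33% below. The libraries of OE18 lay wholly above those of WT in 55 members and wholly below in 32, which compares with 42.1% and 38.2% of tested genes. In each of the 55, the OE14 libraries lay wholly below WT as well, a course found in 6.35% of tested genes and favoured by the rule. In mean FPKM, the 50 members called higher had a median of 174% of the WT level in OE18, the 31 called lower 60.3% and the 23 not called 105%.

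Members called lower in OE18 than in WT were on the whole those with the larger WT level and the deeper trough. Their medians over WT, OE14 and OE18 were 32.0, 5.38 and 19.3 FPKM. Members called higher had medians of 10.4, 3.44 and 24.9 FPKM in the same order, and those not called 10.8, 3.46 and 11.9 FPKM. The median step from WT to OE14 was -2.16 in the members called lower, -1.29 in those called higher and -1.24 in those not called. These medians are linked to the calls by arithmetic, since both use the WT values, and were not tested.

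**Figure D3:**
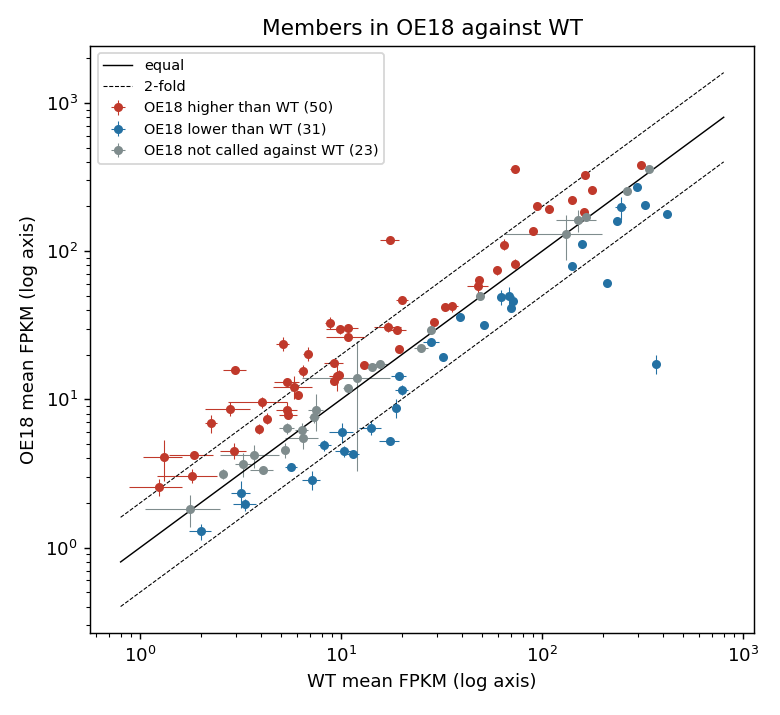
Mean FPKM of each of the 104 members in WT (x axis) and in OE18 (y axis), both on log axes, with bars of 1 SD over 3 libraries. The solid line marks equal levels and the dashed lines a 2-fold difference in FPKM; red, blue and grey points are members called higher (50), called lower (31) and not called (23) in OE18 against WT.

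In 3 members no read was found in any OE14 library. Potri.T020000.v3.0 had 65.9, 65.8 and 63.0 FPKM in the WT libraries, 0 in each OE14 library and 117, 99.5 and 116 FPKM in OE18. It was the member with the largest steps, from 1875 reads over the WT libraries to none and then to 3337 in OE18. Against the limit of 3 reads over the group, it was at least 735-fold higher in WT and at least 1253-fold higher in OE18 than in OE14. In OE18 it was above WT by 0.76 on the log2 scale (SE 0.066, limma adjusted p = 1.2e-07), with all 3 OE18 libraries above all WT libraries. The rule used both group means, and members were printed by ID according to the sign of this difference. The p-values of the members printed by ID therefore carry no support of their own. The fit also estimates spread over all libraries, and OE14 libraries without a read add none to it.

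Potri.T019800.v3.0, the preceding locus in the table, had the same course. It had 21.2, 20.8 and 18.6 FPKM in WT, 0 in each OE14 library and 49.5, 45.1 and 45.9 FPKM in OE18. It was at least 142-fold higher in WT and at least 330-fold higher in OE18 than in OE14 at the limit of 3 reads, and it was above WT in OE18 by 1.18 (SE 0.076, limma adjusted p = 4.2e-09). The loci on either side of this pair did not go to 0 in OE14. The preceding one had means of 4.57, 7.02 and 8.80 FPKM in WT, OE14 and OE18, and the following one 2.26, 1.62 and 2.57 FPKM.

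The third member without an OE14 read, Potri.007G125400.v3.0, was expressed at a low level. It had 2.15, 1.72 and 2.15 FPKM in WT, from 99 reads in all, and 1.26, 1.46 and 1.14 FPKM in OE18, from 67 reads. It was at least 38.7-fold higher in WT and at least 24.9-fold higher in OE18 than in OE14. Its OE18 libraries all lay below its WT libraries, by 0.39 on the log2(FPKM + 1) scale (SE 0.12, limma adjusted p = 0.0066). In a fit of WT and OE18 libraries only, the limma adjusted p was 0.011. With a pseudocount of 0.1 the call was lost (-0.60, limma adjusted p = 0.051). Of the 3 loci on either side of it on chromosome 7, the tested ones were not members. Their means in WT, OE14 and OE18 were 1.86, 0.686 and 1.58 FPKM for the one before it, 14.2, 15.2 and 6.61 FPKM for the next one after it, and 0.89, 0.24 and 1.01 FPKM for the last. Among these tested loci, OE14 thus had the lowest mean in all but the gene that follows directly. The untested loci of this window were low and mixed. In ID order they had 0.0368, 0.161 and 0.061 FPKM, 0.117, 0.229 and 0.281 FPKM, and 0.323, 0 and 0.26 FPKM in WT, OE14 and OE18.

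Absence of OE14 reads was uncommon among genes with a clear WT level. Of the tested genes, 50 had no read in the OE14 libraries, 13 of these had a WT mean of 1 FPKM or more, and 4 of the 13 also reached 1 FPKM in OE18, among them the 3 members.

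On the log2(FPKM + 1) scale, the member with OE14 reads whose smaller step was largest was Potri.008G130500.v3.0. It had 63.6, 60.2 and 62.4 FPKM in WT, 7.66, 8.77 and 6.37 FPKM in OE14 and 54.6, 49.6 and 43.4 FPKM in OE18. The genotypes did not overlap. In mean FPKM it was 8.17-fold higher in WT and 6.47-fold higher in OE18 than in OE14, and OE18 stayed below WT by 0.33 on the log2 scale (SE 0.095, limma adjusted p = 0.0054). Without a pseudocount, members with few OE14 reads had larger folds, such as an unplaced locus with 17 OE14 reads whose mean FPKM was 88.2-fold higher in WT and 33.3-fold higher in OE18 than in OE14.

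Some members stood close to WT in OE18. A member of chromosome 3 had 269, 267 and 257 FPKM in WT, 54.4, 58.4 and 58.9 FPKM in OE14 and 246, 264 and 259 FPKM in OE18. Its OE18 and WT libraries overlapped, and limma did not call the difference of -0.05 (SE 0.044, adjusted p = 0.34). A member of chromosome 9 with 337, 349 and 333 FPKM in WT had 94.6, 97.5 and 94.9 FPKM in OE14 and 352, 362 and 364 FPKM in OE18. That difference was 0.08 (SE 0.037, limma adjusted p = 0.06), again not called, although its OE18 libraries all lay above WT.

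Other members passed the WT level in OE18. The largest excess was that of a member of chromosome 19, with 15.8, 19.7 and 17.2 FPKM in WT, 3.65, 3.69 and 4.55 FPKM in OE14 and 117, 114 and 124 FPKM in OE18. OE18 held 673% of its WT mean, a log2 difference of 2.69 (SE 0.085, limma adjusted p = 2.1e-12). This member and the next were picked for the size of that difference, so their p-values carry no support of their own. A member of chromosome 14 had 70.8, 70.7 and 77.3 FPKM in WT, 25.4, 27.0 and 27.0 FPKM in OE14 and 355, 364 and 352 FPKM in OE18, a difference of 2.28 from WT (SE 0.046, limma adjusted p = 2.6e-14). In these members the OE18 level stood further from WT than the OE14 level did on the log2 scale. Members of chromosomes 6 and 1 followed at lower levels, with means of 2.96 and 5.13 FPKM in WT, 0.876 and 1.57 FPKM in OE14 and 15.9 and 23.7 FPKM in OE18.

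Members of another kind recovered only in part. A member of chromosome 9 had 386, 367 and 355 FPKM in WT, 5.98, 4.82 and 5.35 FPKM in OE14 and 18.7, 19.0 and 14.4 FPKM in OE18. Its OE18 mean was 3.23-fold above OE14 and 4.70% of WT, a log2 difference from WT of -4.34 (SE 0.091, limma adjusted p = 3.7e-14). It was picked as the member furthest below WT in OE18, so this p-value carries no support of its own. The most abundant member in WT, on chromosome 2, had 431, 408 and 410 FPKM in WT, 84.3, 84.6 and 84.4 FPKM in OE14 and 185, 177 and 170 FPKM in OE18. A member of chromosome 8 fell from a mean of 211 FPKM in WT to 19.2 FPKM in OE14 and had 60.5 FPKM in OE18. These 3 members met the rule although most of the WT level was still missing in OE18.

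**Figure D4:**
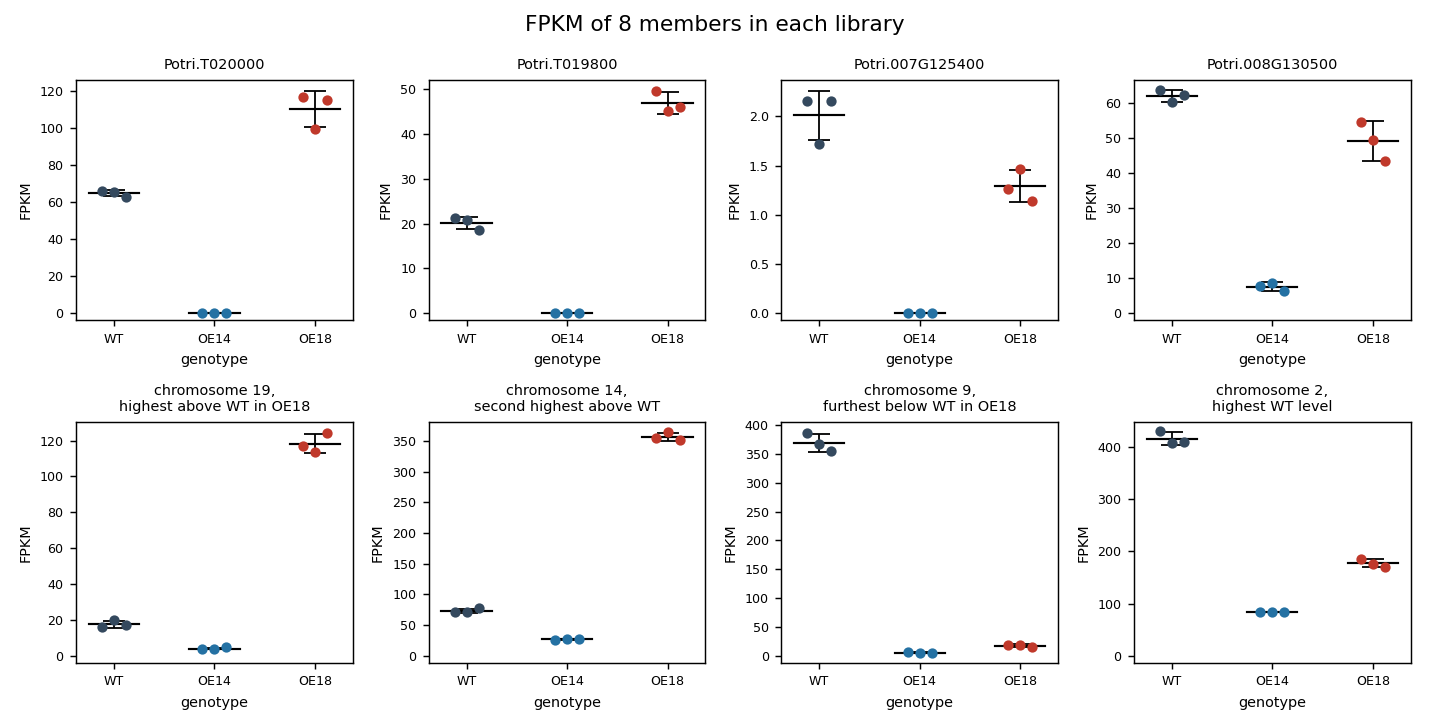
FPKM of 8 members by genotype, with a point for each library, a horizontal line at the mean and bars of 1 SD (n = 3). The upper row holds the members printed by ID, of which the first 3 have no OE14 read; the lower row holds the members of chromosomes 19 and 14 that lay furthest above WT in OE18, the member of chromosome 9 that lay furthest below, and the member of chromosome 2 with the highest WT level.

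The members were spread over the genome. They were found on 18 of the 19 chromosomes in the IDs, with 16 on chromosome 1, 9 on chromosome 6, 8 on chromosome 8 and none on chromosome 12. On the 19 chromosomes together they made up 0.435% of the tested genes outside the excluded stretch (96 of 22054). Chromosomes 18 and 19 held 6 and 4 members, 0.705% and 0.701% of their tested genes. Loci whose ID places them on no chromosome held 8 members of 497 tested genes (1.61%). Against WT, OE18 was called higher in 4 of these 8 and lower in 2, beside 41.6% and 37.9% of all tested genes. Nothing is read from so few. Unplaced loci made up 7.69% of the members and 2.18% of tested genes. They were also 12 of the 210 genes highest in OE14. Of the 397 genes 2-fold or more lower in OE14 they were 18, a count that includes the 8 members. Whether their number is particular to the members was not tested. How the counting treated reads shared between similar loci is not given in the sources used here, so the levels of unplaced loci, which can be near-copies of placed ones, are less certain.

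**Figure D5:**
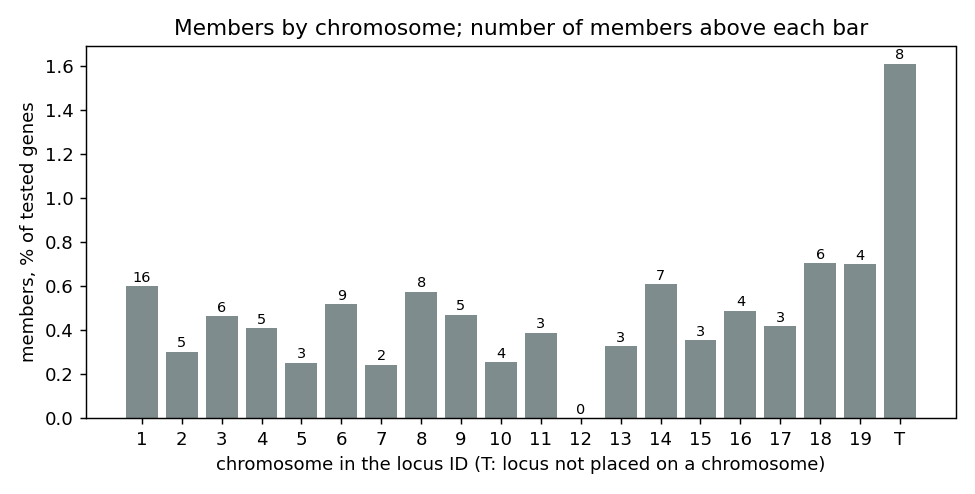
Bars give the members as a percentage of the tested genes of each chromosome, outside the excluded stretch of chromosome 5, with the number of members above each bar. Chromosomes range from 0% to 0.705%, and the loci placed on no chromosome (T) stand at 1.61% with 8 members.

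Most members stood alone, though how many neighbours as many randomly drawn genes would have was not worked out. Counting neighbours as members of the same chromosome with at most 10 tested genes between them, 85 members had no neighbour, 16 formed 8 pairs and 3 formed a run. In 5 cases members followed each other directly in the ID order of tested genes. On chromosome 14, such a pair had means of 14.0 and 17.5 FPKM in WT, 1.49 and 1.00 FPKM in OE14 and 6.43 and 5.20 FPKM in OE18, so both recovered in part. On chromosome 19, the member with the largest excess over WT was followed by a member with means of 10.8 FPKM in WT, 3.91 FPKM in OE14 and 26.2 FPKM in OE18, so both passed WT. On chromosome 16, a pair had 89.8 and 48.2 FPKM in WT, 33.8 and 22.8 FPKM in OE14 and 137 and 58.3 FPKM in OE18.

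Neighbours did not always take the same course. In the run of 3 unplaced loci, the first member fell from 11.4 FPKM in WT to 0.129 FPKM in OE14, from 1233 reads to 17, and had 4.31 FPKM in OE18. The second had 28.2, 12.7 and 29.4 FPKM in the same order and the third 3.18, 0.477 and 2.32 FPKM. On chromosome 8, members with 3 tested genes between them went from 211 and 93.8 FPKM in WT to 60.5 and 201 FPKM in OE18, on opposite sides of WT. Unplaced loci that follow each other by ID need not be neighbours in the genome.

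The median WT level of members was 15.0 FPKM, with a range from 1.25 to 416 FPKM, beside 7.64 FPKM for all tested genes. In OE14 the medians were 3.87 FPKM for members and 8.06 FPKM for tested genes, and in OE18 18.5 and 8.39 FPKM. The rule favours genes with a high WT level, since a fall of 2-fold on log2(FPKM + 1) needs a level clearly above the pseudocount. Gene length, which the rule did not use, had a median of 1731 bases in members and 1850 bases in all tested genes, with a range from 494 to 3970 bases in members.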

How the data were processed

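RNA was measured in 9 leaf libraries of plants under drought, 3 per genotype. The authors deposited FPKM values per locus. Bowtie2 (2.2.3) and HISAT2 (2.1.0) were used per the submitters' processing notes. For the counter, genome build, annotation release and strand setting, nothing is given in the sources used here. Reads, library totals and gene lengths were recovered from the steps of the FPKM values. All 29764 genes gave whole reads within 1e-06 reads, but each length was fitted to make them whole. In 29005 genes, above 0 in 2 or more libraries, the same length had to serve several libraries. Members and tests were chosen with earlier results of these data known. Log2(FPKM + 1) was fitted by limma (version 3.58.1, under R version 4.3.3) with the intensity-trend option of its variance prior, over all 9 libraries (6 residual degrees of freedom, two-sided, Benjamini-Hochberg, called at an adjusted p under 0.05). This scale understates changes of low genes. The limma p-values measure the spread between these libraries. In simulated data with 50 genes changed at each fold in OE18, the fit called 42% right at 1.3-fold and 98% at 2-fold. It made 8 false calls among 20986 tested genes. Far fewer genes changed there than were called in the real libraries, and all had the same setting of spread. The simulation therefore does not show how the fit behaves in the real libraries.

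Members described in full were those without OE14 reads, the 10 with the largest smaller step, the 6 highest in WT, the 4 highest and 4 lowest in OE18 minus WT, and runs of 3 or more; representatives of these are given. In that order, the first 2 members with OE18 above WT and the first 2 with OE18 below WT are printed by ID. The 20 gene lists, cell type markers and promoter motifs that needed an annotation were not used here. Alternatives covered pseudocounts of 0.1 and 0.5, filters, 3 scalings, voom on recovered reads, a fit of WT and OE18 alone, and leaving out each library; the FPKM filter always used all 9 libraries. WT replicates are numbered by their column.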

Additional observations from a re-analysis of the deposited data

Results flagged for a closer look

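In 55 members every OE14 library lay below every WT library while every OE18 library lay above every WT library, so the lines moved in opposite directions from WT in all libraries. This course was found in 6.35% of all tested genes. OE18 lay wholly above WT in 42.1% of tested genes. The rule demanded the fall in OE14 and, by demanding a rise from OE14, favoured OE18 above WT. Limma called OE18 above OE14 in all 104 members, the 55 included, but the rule used that difference, so the call carries no support of its own.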

How the results depend on the processing

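The number of members depended mainly on the pseudocount and on the size demanded. The rule gave 261 genes with a pseudocount of 0.1, 160 with 0.5, 654 with a log2 threshold of 0.5 and 35 with 1.5. It gave 99 to 121 under the other scalings, 79 among genes with a mean of 5 FPKM or more, 131 with the chromosome 5 stretch included, and 101 to 112 without single libraries, of which 95 to 104 were members. Members called higher in OE18 than in WT numbered 40 to 51 over the alternatives, 46 to 50 without single libraries, and those called lower 25 to 36, or 26 to 32 without single libraries. The low ends, 40 and 25, came from the filter at a mean of 5 FPKM, under which only 79 members were tested. Over the same alternatives, 5933 to 10771 of all tested genes were called higher and 6642 to 10647 lower. Without single libraries these counts were 9172 to 9506 and 8252 to 8643. The number of genes tested changed with the filter. The median OE18 minus WT of the members was 0.0813 after rescaling to TPM and 0.0409 after quantile normalization, and 0.15 to 0.21 without single libraries. The 4 members printed by ID kept their direction throughout, and 3 of them their call, wherever they were tested. The cause of these shifts was not tested.

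The WT columns carry no number tied to a label, so no paired fit of OE18 against WT was possible. Same-numbered OE14 and OE18 libraries did not all deviate together (r = 0.15, 0.13 and -0.03), so the numbers were not taken as pairs. A fit with the replicate block in these lines called 17738 genes in OE18 against OE14, beside 17745 without it and 17620 from the same 6 libraries without the block, an alternative added after the data were seen. These totals count both directions among 22848 tested genes, and 38.8% of tested genes were called higher in the fit of all libraries. All 104 members were called higher in each fit. The rule used that difference, so these calls carry no support of their own. The planned quasi-likelihood count test was not run, and voom was the only test on recovered reads. Low levels in OE14 limit the precision, with fewer than 20 reads for 12 members.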
